A study of Mus musculus with 2 samples.

Results

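The mitochondrial ribosomal protein genes are the nuclear genes whose products build the ribosome inside mitochondria. They were taken as every non-control probe whose gene name in the array files is Mrpl or Mrps followed by a number and, at most, the letter a, b or c. The rule found 125 probes of 75 genes among 41174 probes of 28787 genes on the arrays, with 46 genes (75 probes) named for the large subunit and 29 genes (50 probes) for the small subunit. The study set RNA from microvesicles shed by fat cells (adipocyte-derived microvesicles, ADMs) against RNA from the donor cells themselves. All RNA came from the established mouse preadipocyte line 3T3-L1, grown with 10% fetal calf serum and turned into fat cells with insulin (10 µg/ml), dexamethasone (0.25 µM) and IBMX (0.5 mM). On day 11 after induction, ADMs were spun from conditioned medium by ultracentrifugation and cells were harvested, so line, inducers and day were shared by both RNAs. Each of 2 biological replicates was 1 two-colour Agilent mouse array with 250 ng of each RNA as input. The ADM RNA carried Cy5 in replicate 1 and Cy3 in replicate 2. The labels call the replicates biological but do not say whether the cultures were handled separately, so a p-value measures only the spread between these arrays.

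Mitochondria keep their own ribosomes to translate the few proteins encoded in mitochondrial DNA, all of them subunits of the oxidative phosphorylation complexes. The RNA of these ribosomes is made in the organelle, while their proteins are encoded in the nucleus, translated in the cytosol and imported. Some of the proteins descend from bacterial ribosomal proteins and others are found only in mitochondrial ribosomes. Adipocyte differentiation is known for a rise in mitochondrial mass, which needs these proteins.

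A probe's value is the log2 ratio of ADM over donor cell signal after loess, a correction that sets each probe against probes of similar brightness within its array. A value of 0 thus means the ratio usual at that brightness, a positive value lies on the ADM side, and every direction follows the dyes named in the labels. The brightest probe that could be tested stood for a gene, and the number after ± gives the SD between the 2 arrays. Since whole RNA extracts were measured, more vesicles carrying a message and more message per vesicle cannot be told apart.

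All 9 adipocyte markers were detected (well above background on both arrays) in ADM RNA and 8 in donor cell RNA, while of 2 liver markers 0 were in either. Of 6 macrophage markers, 3 were detected in ADM RNA and 2 in cell RNA. All 6 preadipocyte or fibroblast markers were detected in ADM RNA and 4 in cell RNA. Of 2 red cell markers, 1 was detected in ADM RNA and 2 in cell RNA, and of 3 skeletal muscle markers 1 and 0. The arrays shared 1 slide, and their ratios correlated across all 13186 genes tested at 0.932 (Pearson r), which is a value across genes, and genes are not independent replicates. Spots that the scanner marked as outliers were left out, 2566 on array 1 and 1942 on array 2.

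All 75 mitochondrial ribosomal protein genes were detected in the ADM RNA. Each had at least 1 probe well above background in ADM RNA on both arrays, and 72 of 75 did in donor cell RNA. The tested genes lie on 17 chromosomes. Of the 125 probes, 99 could be tested, 13 carried an outlier flag on 1 or both arrays and 13 were too dim in both RNAs. This left 69 genes with a test, 42 of the large and 27 of the small subunit. The other 6 (Mrpl12, Mrpl20, Mrpl23, Mrpl46, Mrps16 and Mrps35) had their probe marked as an outlier on 1 array. Their single ratios ran from -0.26 for Mrpl23 in replicate 1 to 0.61 for Mrps35 in replicate 2, and Mrpl12, the stalk protein that recruits translation factors, gave -0.21 in replicate 2.

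As a group these messages stayed close to the ratio usual for their brightness. After loess all 69 lay within 2-fold, from -0.63 (Mrpl33) to 0.68 (Mrpl3), against 86.7% of all genes tested. Their median was 0.23, with 0.20 in replicate 1 and 0.26 in replicate 2, beside 0.04 for all genes tested. The interquartile range of the members was 0.32, against 0.59 for all genes. On both arrays 47 members (68.1%) were positive and 11 (15.9%) negative, while 44.7% of all genes were positive and 37.8% negative on both. The small shift to the ADM side depended on the scaling. The median stood above that of all genes after loess but below it in both subunits with the scanner's own processed ratios. The narrow range depended on the scaling too. With the processed ratios the members ran from -0.71 (Mrpl52) to 1.87 (Mrpl50), where the median of all genes was 0.50, so not all lay within 2-fold.

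In limma with Benjamini-Hochberg adjustment over all genes, 3 of the 69 members were higher in ADM RNA, 1 was lower and 65 did not pass. The background was 5.79% of all genes called higher (764) and 12.0% called lower (1587), 17.8% in either direction, against 4.35% and 1.45% of the members, so the members' share of higher calls was near the background. All 4 calls lay close to the threshold, with adjusted p from 0.0380 to 0.0497, and another 13 members had an adjusted p between 0.05 and 0.1. At an unadjusted p under 0.05 there were 23 members (33.3%), 20 of them on the ADM side, against 38.4% of all genes tested. The split of calls turned with the scaling. Median centring does not remove the trend of ratios with brightness and moves the median of all genes from 0.04 to 2.34. Under it 69 members were called higher and 0 lower, where 62.1% of all genes were called higher. Limma there gave all genes 1 shared variance, so p-values of that setting carry no information on the spread of single genes. With the scanner's processed ratios (median of all genes 0.50) 5 members (7.25%) were higher and 0 lower, where 28.1% of all genes were higher and 17.1% lower. When spots with an outlying local background were kept, limma called 0 of 14056 genes, members included, with 577 genes and 5 members at an unadjusted p under 0.05. Higher genes made up 32.5% of all calls with loess, 97.3% with median centring and 62.2% with the processed ratios.

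**Figure D1:**
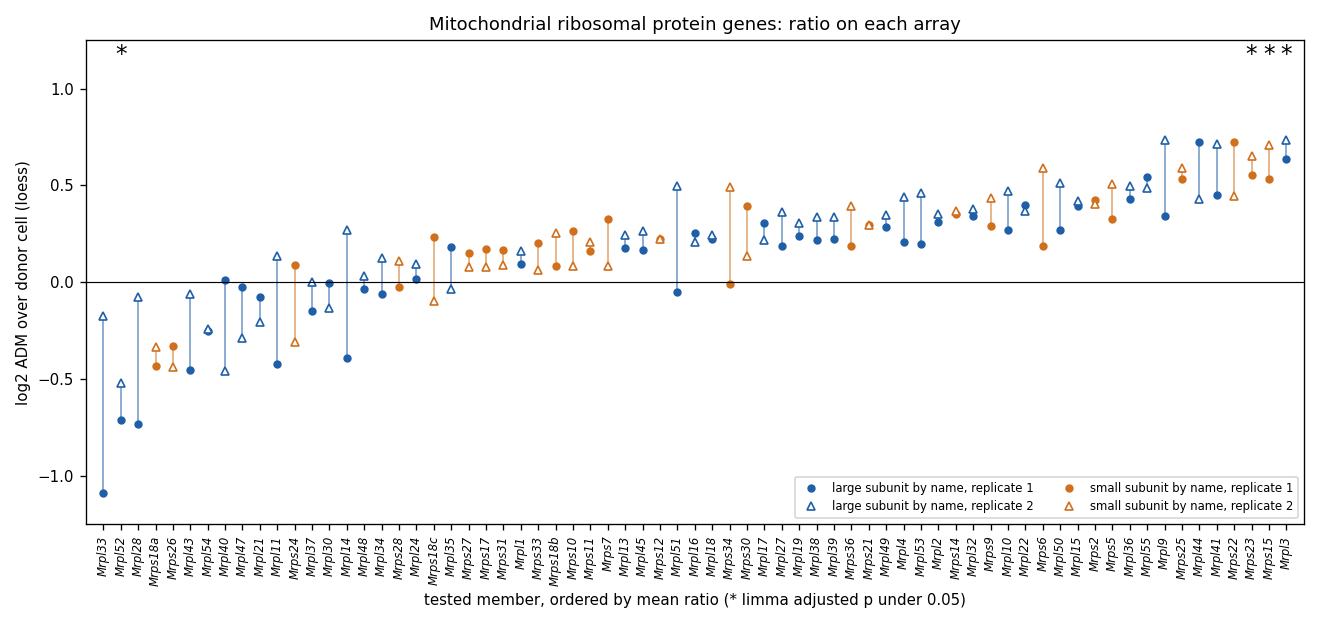
Log2 ratio of ADM over donor cell signal after loess for each of the 69 tested mitochondrial ribosomal protein genes on each array, ordered by the mean; circles are replicate 1, triangles replicate 2, blue the large and orange the small subunit by name, and stars mark an adjusted p under 0.05 in limma. All means lie between -0.63 and 0.68, and the 15 at or below 0 include 12 of the large subunit.

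The large and the small subunit were set against each other because both are needed in equal number for a working ribosome. Their medians differed by less than the arrays did. The large subunit had a median of 0.23 and the small subunit of 0.22, a difference of 0.01. It was -0.03 on the first array and 0.05 on the second, so the sign differed. An exact test over 2 arrays cannot give a p below 0.5, and none was made. Of the large subunit 1 gene was higher, 1 lower and 40 did not pass, and of the small subunit 2 were higher, 0 lower and 25 did not pass. The large subunit spread more widely, with an interquartile range of 0.42 against 0.25. At or below 0 lay 12 of 42 large and 3 of 27 small subunit genes. The difference was 0.16 with median centring and -0.12 with the scanner's processed ratios, so it had no settled direction.

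In the large subunit, Mrpl3 was the gene furthest to the ADM side after loess, but its rank changed with the processing. Its product is the counterpart of a bacterial protein that lies near the peptidyl transferase centre, where peptide bonds form. The log2 ratio was 0.63 in replicate 1 and 0.73 in replicate 2, a mean of 0.68 ± 0.07 (SD, n = 2; limma adjusted p = 0.0380), or 1.61-fold. Net signals, the spot minus its local background in scanner units, were 14777 in ADM and 100.3 in cell RNA of replicate 1, and 5431 and 325 in replicate 2. The probe used for each tested member was at least 6.32 times brighter in the ADM than in the cell channel on both arrays. A ratio is thus read only against those of other genes. All 3 testable probes of Mrpl3 were on the ADM side, at 0.68, 0.69 and 0.92, and all 3 passed when each probe was tested on its own (adjusted p from 0.0276 to 0.0458 in limma). The brightest lies at chromosome 9, 104793640 to 104793699 (mouse build mm7), and another probe was not well above background.

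Mrpl52, a protein of the large subunit without a bacterial counterpart, was the 1 member called lower with loess, but it stood on the ADM side with median centring (3.53, against 2.34 for all genes). Its log2 ratio was -0.71 in replicate 1 and -0.52 in replicate 2, a mean of -0.62 ± 0.14 (SD, n = 2; limma adjusted p = 0.0497). Net signals were 7606 in ADM and 167 in cell RNA of replicate 1, and 3224 and 493 in replicate 2. The probe lies at chromosome 14, 49296693 to 49296752 (mm7). A much dimmer probe of the same gene gave 0.17, and with the median of the probes the gene stood at -0.22 and did not pass (limma adjusted p = 0.225).

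The promoters of these 2 oppositely placed members of the large subunit are shown to compare their sequence. Each window holds 250 bases before and 50 after the RefSeq start in build GRCm38.p6, where the genes lie on the plus strand at chr9:105053018-105053317 (Mrpl3) and chr14:54426659-54426958 (Mrpl52). Capitals mark the letters CCGGAAG on either strand, the core that ETS factors such as the nuclear respiratory factor GABP are known to bind.
Mrpl3: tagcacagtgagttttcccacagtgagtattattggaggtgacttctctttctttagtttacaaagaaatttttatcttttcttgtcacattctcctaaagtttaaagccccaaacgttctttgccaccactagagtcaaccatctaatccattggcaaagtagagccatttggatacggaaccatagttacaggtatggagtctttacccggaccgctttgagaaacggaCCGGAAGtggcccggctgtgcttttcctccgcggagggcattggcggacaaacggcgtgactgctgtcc
Mrpl52: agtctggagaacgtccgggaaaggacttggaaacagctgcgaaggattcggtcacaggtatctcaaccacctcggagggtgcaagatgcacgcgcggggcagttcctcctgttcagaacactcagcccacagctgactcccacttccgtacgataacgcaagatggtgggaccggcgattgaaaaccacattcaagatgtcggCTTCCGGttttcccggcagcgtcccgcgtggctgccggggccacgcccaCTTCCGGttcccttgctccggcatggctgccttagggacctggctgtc
The letters occur once in the Mrpl3 window and at 2 places in that of Mrpl52. Of 66 member genes with a window, 24 (36.4%) held them, against 20.2% of 8534 genes tested on the arrays with a window and 9.93% of all 27025 genes of the table. The letters GCGC, any base and TGCGC in a row (either strand), the core of the sites of nuclear respiratory factor 1, were in 12 members (18.2%), 11.6% of the genes tested and 5.19% of all, and in neither window shown. Tested members with the ETS letters had a median log2 ratio of 0.17 (23 genes) and those without of 0.27 (38 genes), which is a description and not a test.

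The other large subunit genes at the ADM end did not pass the test. Mrpl41, which has no bacterial counterpart, stood at 0.45 and 0.71 on the 2 arrays (mean 0.58 ± 0.19, SD, n = 2; limma adjusted p = 0.0602). Mrpl44, whose product has a ribonuclease III-like fold, was at 0.73 and 0.43 (mean 0.58 ± 0.21; adjusted p = 0.0643), and its 3 probes ran from 0.44 to 0.65. Mrpl9 had a mean of 0.54 ± 0.28, Mrpl55 of 0.52 ± 0.04 and Mrpl36, whose bacterial counterpart is among the smallest ribosomal proteins, of 0.46 ± 0.05 (limma adjusted p from 0.0571 to 0.0890). Each of these 5 was positive on both arrays.

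At the cell end of the large subunit the arrays agreed less well. Mrpl33 gave -1.09 in replicate 1 and -0.17 in replicate 2, a mean of -0.63 ± 0.65 (SD, n = 2; limma adjusted p = 0.176), so its place as the lowest member rests on replicate 1. Net signals of Mrpl33 were 46222 in ADM and 631 in cell RNA of replicate 1, and 19482 and 1952 in replicate 2. Mrpl28 stood at -0.74 and -0.08 (mean -0.41 ± 0.46; adjusted p = 0.231 in limma), and its second probe at 0.46, on the other side. Both genes have bacterial counterparts. Mrpl43 (-0.26 ± 0.28), Mrpl54 (-0.25 ± 0.01) and Mrpl40 (-0.22 ± 0.33), which have none, completed the lowest 6, and Mrpl40 changed sign between arrays. The 5 genes other than Mrpl52 had limma adjusted p from 0.176 to 0.381. Mrpl28 and Mrpl43 were positive with the scanner's processed ratios. With median centring all 69 members were positive, where the median of all genes was 2.34, so the signs of these 6 carry no information there.

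In the small subunit, 2 genes were called higher. Mrps15 encodes the counterpart of a bacterial protein that binds the small-subunit RNA early in assembly. It stood at 0.54 in replicate 1 and 0.71 in replicate 2 (mean 0.62 ± 0.12, SD, n = 2; limma adjusted p = 0.0482), with net signals of 7034 in ADM and 58.7 in cell RNA of replicate 1, and 2822 and 172 in replicate 2. Mrps23, a protein found only in mitochondrial ribosomes, stood at 0.55 and 0.65 (mean 0.60 ± 0.07; limma adjusted p = 0.0465). Net signals of Mrps23 were 3022 in ADM against 24.1 in cell RNA of replicate 1, and 1090 against 63.8 in replicate 2. Its 2 probes agreed, at 0.60 and 0.59. Their brightest probes lie at chromosome 4, 125496028 to 125498177 (Mrps15), and chromosome 11, 88279787 to 88280019 (Mrps23), in mm7, each across a span longer than the 60 bases of a probe.

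Close behind were genes that missed the threshold. Mrps22, a gene mutated in some inherited human mitochondrial diseases, had 0.72 and 0.45 (mean 0.58 ± 0.20, SD, n = 2; limma adjusted p = 0.0610). Mrps25 had 0.53 and 0.59 (mean 0.56 ± 0.04; limma adjusted p = 0.0505), the value nearest to the threshold among the genes not called. Mrps5, counterpart of a bacterial protein with a part in accurate decoding, had 0.42 ± 0.13, and its 3 probes ran from 0.11 to 0.55. The brightest probe of each was positive on both arrays.

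At the cell end of the small subunit, no gene was called. Mrps26, found only in mitochondria, gave -0.33 and -0.44 (mean -0.38 ± 0.08, SD, n = 2; limma adjusted p = 0.0974), while its other probe gave 0.18. Mrps24 gave 0.09 and -0.31 (mean -0.11 ± 0.28). Mrps28 (0.04 ± 0.09) and Mrps27 (0.11 ± 0.05), an RNA-binding protein of the pentatricopeptide repeat type, were near 0. Mrps24 and Mrps18a, the latter described next, were positive with spots of outlying local background kept.

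The Mrps18 genes and Mrps30 are known to differ from what their names say. Ribosome structures place Mrps30 and Mrps18a in the large subunit, while the other 2 Mrps18 proteins sit in the small subunit. Mrps18a had -0.43 in replicate 1 and -0.34 in replicate 2 (mean -0.39 ± 0.07, SD, n = 2; limma adjusted p = 0.0954). Mrps18b had 0.08 and 0.26 (mean 0.17 ± 0.12; adjusted p = 0.357 in limma) and Mrps18c 0.23 and -0.10 (mean 0.07 ± 0.23; adjusted p = 0.742 in limma). With loess both arrays thus placed Mrps18a below its paralogues, a difference that was not tested. Mrps30 had 0.39 and 0.13 (mean 0.26 ± 0.18; limma adjusted p = 0.225). With Mrps30 and Mrps18a counted as large subunit proteins, the difference of the subunit medians stayed at 0.01.

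Descent from bacteria, as assigned for this comparison, did not split the members either. The assignment was not checked against protein sequences. The 43 tested genes listed with a bacterial counterpart had a median of 0.23, with 2 higher, 0 lower and 41 not called. The 26 listed as found only in mitochondria also had a median of 0.23, with 1 higher, 1 lower and 24 not called. Of the former 35 (81.4%) and of the latter 19 (73.1%) were positive.

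**Figure D2:**
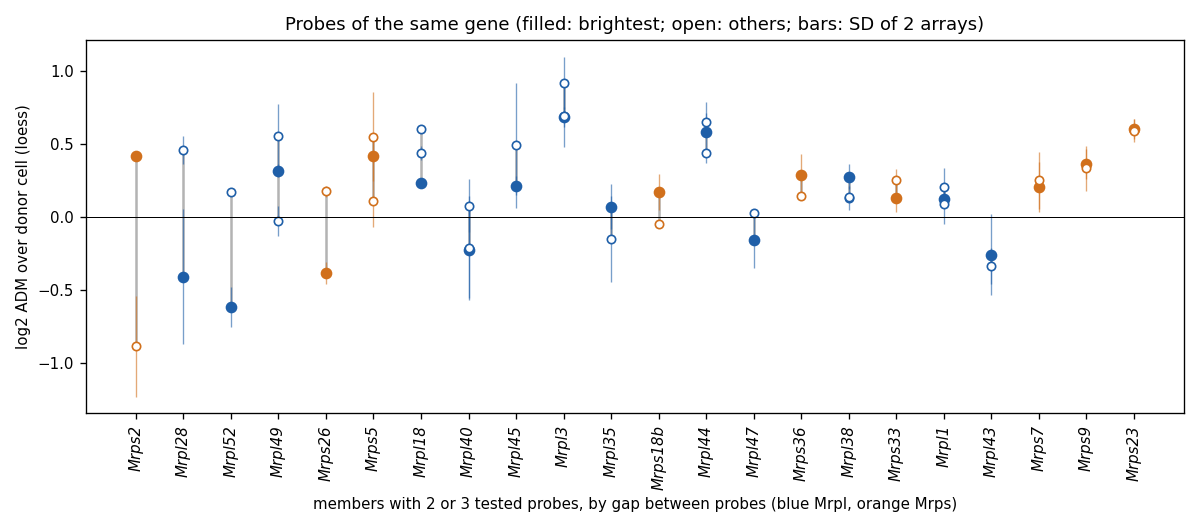
Log2 ratio of ADM over donor cell signal after loess for every tested probe of the 22 members with 2 or 3 tested probes, ordered by the gap between a gene's probes; filled points are the brightest probe, open points the others, bars the SD of 2 arrays, blue Mrpl and orange Mrps. The gap is under 0.5 for 17 genes and reaches 1.30 for Mrps2.

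Probes of the same member were compared with each other. In 22 members with 2 or more tested probes the median gap between the highest and the lowest probe was 0.22, and 17 had a gap under 0.5. In 9 of the 22 the tested probes lay on opposite sides of 0 after loess, among them Mrpl28, Mrpl52 and Mrps26. Mrps2 was the 1 member with a gap over 1. Its brightest probe gave 0.43 and 0.40 (mean 0.42 ± 0.02, SD, n = 2; limma adjusted p = 0.0803), and a dimmer probe -0.64 and -1.13 (mean -0.88 ± 0.34; adjusted p = 0.0435 in limma with each probe tested on its own). Net signals of the dimmer probe were 89.4 in ADM and 24.5 in cell RNA of replicate 1, and 26.5 and 47.1 in replicate 2. Another probe, marked as an outlier in replicate 2, gave -0.51 in replicate 1. The brightest lies at chromosome 2, 28478074 to 28478133 (mm7), and the dimmer one, which matched no RefSeq accession, at 28475972 to 28476031, so the direction of Mrps2 depends on the probe. A probe of Mrps17 stood further apart: it gave -6.67 in replicate 1, was marked as an outlier in replicate 2 and was not tested, while the other Mrps17 probe gave 0.12 ± 0.07. Its net signals were 1020 in ADM and 1761 in cell RNA of replicate 1, and 364 and 5185 in replicate 2, so the cell signal was higher on both arrays. With every probe tested on its own, 9 of 99 member probes were higher (of 6 genes) and 2 lower (of 2 genes), where 5.53% and 10.9% of all 18117 probes were (16.4% in either direction).

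Mrpl50, a gene detected in both RNAs, was represented in the test by a probe not well above background in cell RNA on either array. Its product is found only in mitochondrial ribosomes. Its ratio was 0.27 in replicate 1 and 0.51 in replicate 2. The mean was 0.39 ± 0.17, or 1.31-fold (SD, n = 2; limma adjusted p = 0.115). A lower bound was sought against the higher of the probe's own cell signal and the dimmest signal well above background. This was done per channel after loess and Aquantile scaling. The cell value so taken equalled the probe's own signal, so 1.31-fold is the measured ratio and not a lower bound. A brighter probe of Mrpl50 was well above background in cell RNA on both arrays and gave 0.34 in replicate 1, but it was marked as an outlier in replicate 2 and not tested.

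**Figure D3:**
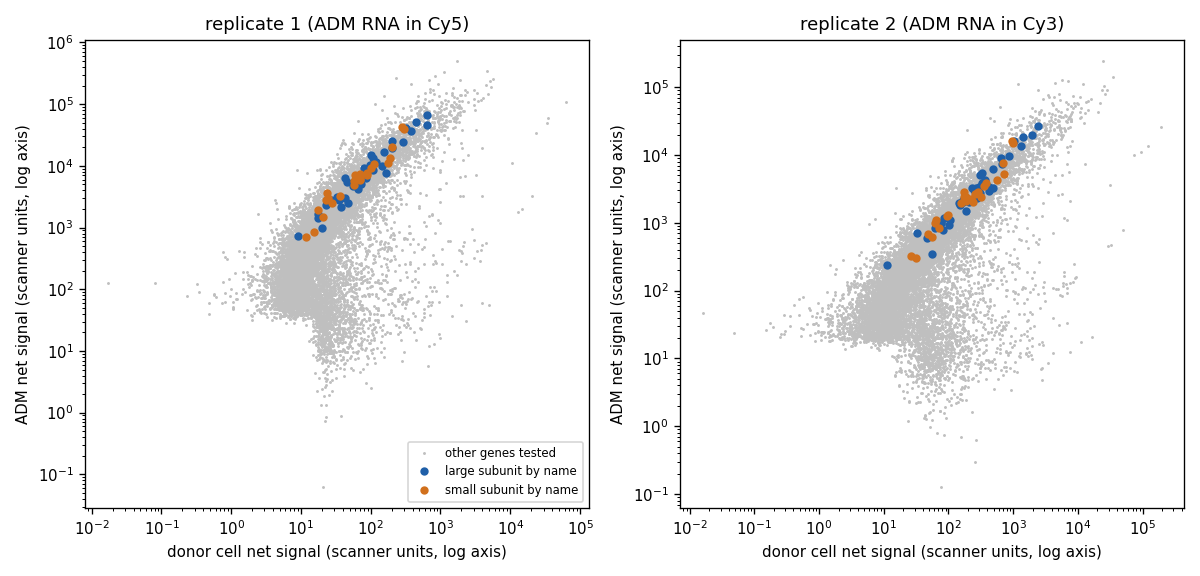
Net signal (spot mean minus local background, scanner units, log axes) of ADM RNA against donor cell RNA in each replicate; blue and orange points are the 69 tested members by subunit name, and grey points the other genes tested with positive net signal in both RNAs. The members have an ADM over cell ratio of net signals between 45.5 and 156 in replicate 1 and between 6.32 and 21.2 in replicate 2.

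Before any scaling, the members' median ratio of signals was above that of all genes. Net ADM over cell signal of the members had a median of 94.1 in replicate 1 and 11.7 in replicate 2, against 44.0 and 7.85 for the 13110 genes with positive net signals. The replicates differ in the dye of each RNA, so the sizes are not comparable between them. As a share of the summed net signal of all tested genes, the members made up 1.29% in ADM and 0.636% in cell RNA of replicate 1, and 1.27% and 0.644% in replicate 2. The share in ADM RNA was thus 2.02 and 1.97 times that in cell RNA. Both subunits took part alike, with 1.99 and 1.96 for the large and 2.12 and 1.99 for the small subunit. These shares carry no test and rest on unscaled signals, in which bright genes had higher ADM over cell ratios. Among the members, the loess ratio fell with the mean log2 signal of the probe, at a Pearson correlation of -0.41 and a Spearman correlation of -0.37 (69 genes, which share both arrays). Between replicates the members' ratios correlated at 0.68 (Pearson) and 0.71 (Spearman).

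**Figure D4:**
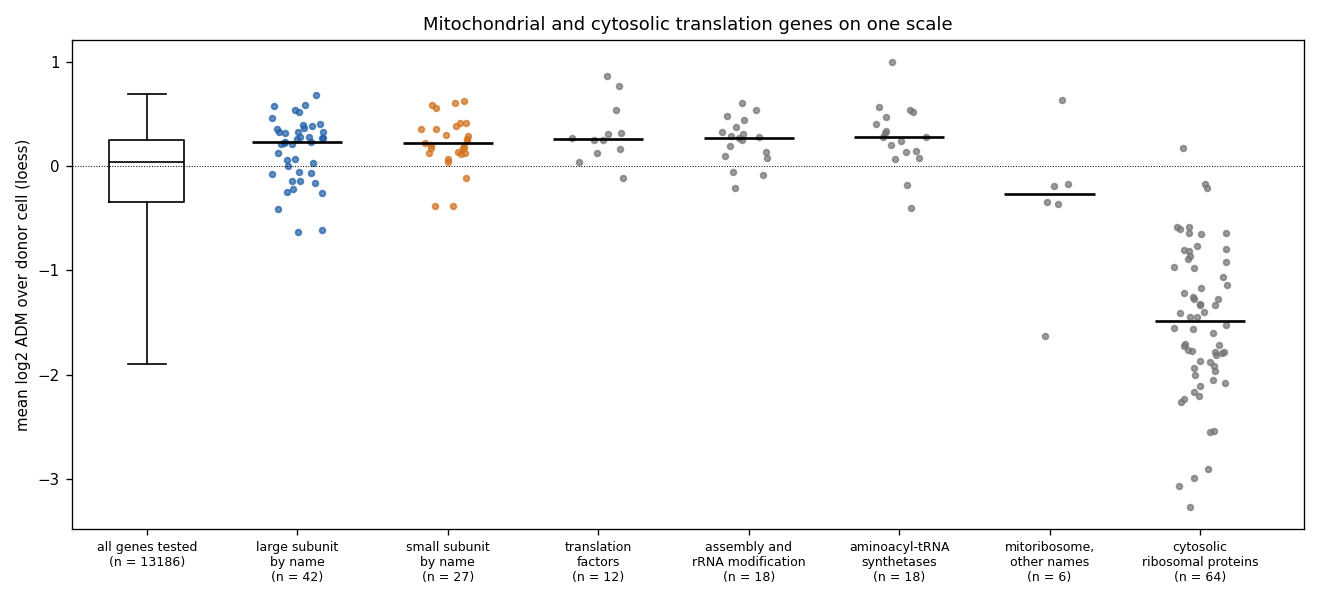
Mean log2 ratio of ADM over donor cell signal after loess for all 13186 genes tested (box from the first to the third quartile with the median, whiskers from the 5th to the 95th percentile) and for each gene of the lists named below the axis (points; bars are medians). The medians of the large (0.23) and small subunit (0.22) lie by those of translation factors, assembly genes and synthetases, 0.26 to 0.28. That of mitoribosome proteins under other names lies at -0.27 and that of cytosolic ribosomal proteins at -1.49, an order that holds after loess.

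The lists of mitochondrial translation factors, ribosome assembly genes and aminoacyl-tRNA synthetases had medians from 0.26 to 0.28 after loess. The median was 0.23 for the ribosomal proteins of the name rule and -0.27 for those under other names, described below. Gfm1, Gfm2 and Iars2 lay above the highest ribosomal protein gene, and the lists were not tested against each other. Of 14 translation factors 12 were tested, with a median of 0.26, 2 higher, 0 lower and 10 not called. The higher ones were Gfm2, a factor that splits the ribosome for recycling (0.86 in replicate 1 and 0.86 in replicate 2; mean 0.86 ± 0.01, SD, n = 2; limma adjusted p = 0.0275), and Gfm1, the elongation factor that moves the ribosome along the message (0.76 ± 0.05; limma adjusted p = 0.0323). In replicate 1 the cell net signal was 10.0 for Gfm2 and 34.3 for Gfm1. At 17.3, the probe used for Mrpl9 was not well above background in that channel, so the ratio of Gfm2 rests on a dim cell signal. The lowest factor was Mrrf, the recycling factor, at -0.11 ± 0.18. Of 21 genes of ribosome assembly and rRNA modification 18 were tested, with a median of 0.27, 1 higher, 0 lower and 17 not called. They ran from Rcc1l (-0.20 ± 0.25) to Noa1, a GTPase (0.61 ± 0.07; limma adjusted p = 0.0459). Noa1 was dim in cell RNA too, with a net signal of 9.47 in replicate 1 and 31.1 in replicate 2. Of 20 genes of aminoacyl-tRNA synthetases and the related amidotransferase 18 were tested, with a median of 0.28, 1 higher, 0 lower and 17 not called. The lists kept their place above all genes with the scanner's processed ratios, by 0.43 for the factors, 0.17 for assembly and 0.69 for the synthetases, where the ribosomal proteins did not. Their cell signals were dimmer, however. In cell RNA 7 of 13 factors on the arrays, 11 of 20 assembly genes and 7 of 19 synthetases were detected, against 72 of 75 ribosomal protein genes. The lists are thus not alike in this comparison, and the cause of the difference was not tested. Under median centring every one of these lists stood above all genes. The synthetases ran from Sars2 (-0.40 ± 0.36) to Iars2, which charges the isoleucine tRNA (0.99 ± 0.01; limma adjusted p = 0.0234).

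Of the genes of mitochondrial transcription and mRNA stability, Tfam stood apart from the others after loess. Of 9 listed 6 were tested, with a median of 0.08, and 1 was higher, 1 lower and 4 did not pass. The 5 other than Tfam ran from -0.12 (Slirp) to 0.61 (Polrmt). Polrmt, the mitochondrial RNA polymerase, had 0.61 ± 0.08 (SD, n = 2; limma adjusted p = 0.0459). Its cell net signal was dim, at 14.8 in replicate 1 and 40.8 in replicate 2. Tfam, which packages mitochondrial DNA and starts its transcription, had -2.32 in replicate 1 and -1.70 in replicate 2 (mean -2.01 ± 0.44; limma adjusted p = 0.0195), below every mitochondrial ribosomal protein gene tested with loess. With median centring Tfam was called higher, at 2.82 against a median of 2.34 for all genes, and with the scanner's processed ratios it stayed lower at -1.61.

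Ribosomal proteins that go by other names in the files, and so lie outside the name rule, were also measured. Of 7 such genes 6 were tested, with a median of -0.27 after loess, 0 higher, 1 lower and 5 not called. The lower one was Mrpl57, named Mrp63 in the files, at -1.75 in replicate 1 and -1.50 in replicate 2 (mean -1.63 ± 0.18, SD, n = 2; limma adjusted p = 0.0146). Mrpl57 was lower with the scanner's processed ratios too (-1.22) but called higher with median centring (3.24). Its net signals were 27124 in ADM and 681 in cell RNA of replicate 1, and 10540 and 2743 in replicate 2. Mrpl58, named Ict1 in the files and known as a peptidyl-tRNA hydrolase that frees stalled ribosomes, had -0.36 ± 0.03. The highest was Ptcd3 at 0.64 ± 0.17 (limma adjusted p = 0.0509). Mrpl42, also under another name, was noticed only when RefSeq names were set beside those of the files, and gave -0.15 ± 0.09 with its brightest probe and 0.23 with the other.

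Messages for the proteins of the cytosolic ribosome lay on the cell side after loess, but not with median centring. Of 64 cytosolic ribosomal protein genes, 53 were lower, 0 were higher and the test called 11 neither way. Their median log2 ratio was -1.49, against 0.23 for the mitochondrial ones, of which 1 of 69 was lower. The cytosolic genes were also brighter, with a median percentile of net signal of 98.1 in ADM RNA of replicate 1 against 85.4. After loess the 2 lists are thus read against genes of different brightness. In replicate 1 the cytosolic median was -1.76 and in replicate 2 -1.19. Against the median of all genes tested, the cytosolic median was -1.53 after loess, -1.26 with the scanner's processed ratios and 1.12 with median centring. Their share of the summed net signal in ADM RNA was 0.945 times that in cell RNA in replicate 1 and 0.740 times in replicate 2, where the mitochondrial ribosomal proteins had 2.02 and 1.97. Of 27 tested subunits of respiratory complex I, 4 were higher and 1 lower, with a median of 0.09 that changed sign between arrays, -0.19 in replicate 1 and 0.29 in replicate 2. The difference between these lists was not tested, since genes of a list are not replicates.

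**Figure D5:**
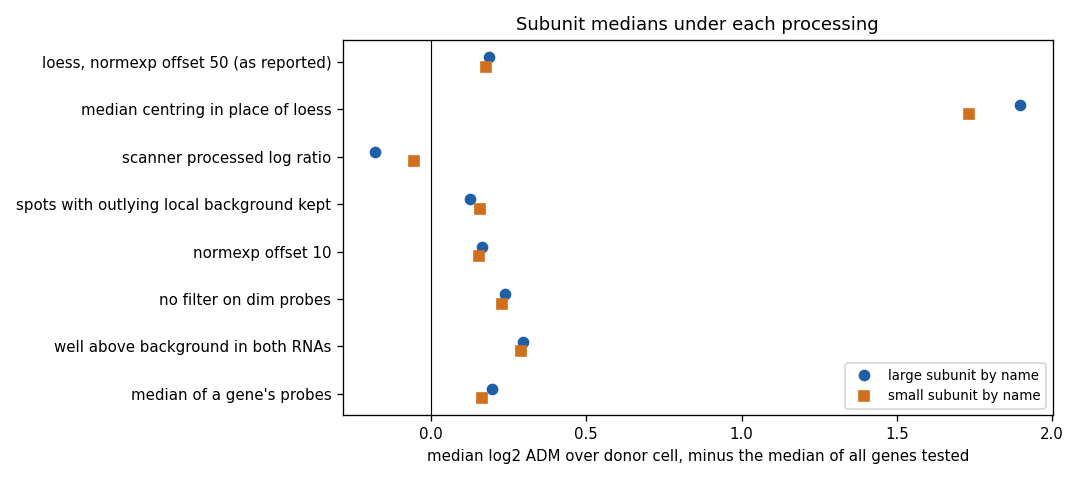
Median log2 ratio of ADM over donor cell signal of the large (blue circles) and small subunit (orange squares) minus the median of all genes tested, under each way of processing. The medians lie between 0.13 and 0.30 with loess, rise to 1.90 and 1.73 with median centring and fall to -0.18 and -0.06 with the scanner's processed ratios.

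The calls of single members followed the processing as well. In limma, Mrps23 passed under every setting but that with outlying local backgrounds kept (adjusted p = 0.505, the same for all 4 called genes). Mrpl3 also missed the threshold with the scanner's processed ratios (adjusted p = 0.0553 in limma), Mrps15 with those ratios (0.05, just above it) and with a normexp offset of 10 (0.0542), and Mrpl52 with those ratios (0.0795) and with the median of its probes (-0.22, 0.225). With median centring limma called Mrpl52 the other way (3.53, adjusted p = 9.6e-06), as it did all members. The 3 genes called higher were positive under all settings run, from 0.16 (Mrps23 with outlying local backgrounds kept) to 4.91 (Mrpl3 with median centring). Other members gained calls. With the processed ratios limma called Mrpl50 (1.87, adjusted p = 0.0181), Mrps18b (1.74, 0.0308), Mrpl9 (1.38, 0.0264) and Mrps25 (1.08, 0.0362) higher. In that setting 28.1% of all genes were higher. The probe used for Mrpl50 was not well above background in cell RNA on either array. Those for Mrps18b and Mrpl9 were not in replicate 1, with cell net signals of 15.3 and 17.3. The ratios of these 3 genes thus rest on a dim cell signal. With an offset of 10 Mrpl50 (0.81, limma adjusted p = 0.0394) and Mrps25 (0.68, 0.0435) passed.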

How the data were processed

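Both arrays were read as deposited. The authors deposited the intensities of spots and of their local background without normalization, as Feature Extraction 10.5.1.1 wrote them, per the file headers. Its log10 ratio is dye-normalized after background subtraction and detrending, per the file headers. A series-wide table repeats the deposited log10 ratio at all 45018 spots (tolerance 1e-04), with the sign of array 2 turned. Probe positions are in mm7, per the file headers.

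Spots flagged as outliers were dropped. Leaving out those with only an outlying local background was chosen with the result of keeping them known. Background was corrected with normexp (offset 50), ratios by loess (control spots at weight 0), and array 2 was turned. A gene was tested where a probe had a ratio on both arrays and passed the scanner's well-above-background flag in the same RNA on both. The brightest of these probes (highest mean log2 signal) stood for the gene. A brighter probe with an outlier flag was thus passed over, as for Mrps6, Mrps33 and Mrpl50. The mean ratio was tested with limma (3.58.1, R 4.3.3; 1 residual and 2.66 prior degrees of freedom) with Benjamini-Hochberg adjustment at 0.05 over 13186 genes. RefSeq (GRCm38.p6) named 22971 of 41174 probes. The fit was tested on simulated data with planted ratios larger than those of any member, so it does not speak to calls of their size. With 2 arrays precision is low.

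Named genes were the 6 highest and 6 lowest of each subunit, the Mrps18 genes and Mrps30, members whose probes differ by over 1, members whose tested probe was above background in 1 RNA alone, and the ends of each list. Mrps17 was named, and the scalings of the other lists were compared, after their values were seen. The members and lists were chosen with earlier results of these data known.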

Additional observations from a re-analysis of the deposited data

How the results depend on the processing

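With 2 arrays and the donor cell channel dim, only differences well above the spread between arrays can be called, and every ratio is relative to genes of similar brightness. The counts of members called higher and lower, 3 and 1, became 69 and 0 with median centring, 5 and 0 with the scanner's processed ratios, 0 and 0 with spots of outlying local background kept, 5 and 1 with a normexp offset of 10, 7 and 2 with genes well above background in both RNAs, 4 and 0 taking each gene at the median of its probes, 14 and 1 with a trended eBayes, and 9 and 2 of probes tested singly. Against all genes, the share of members called higher was 20.3% against 10.9% with the trend, 10.8% against 12.2% with the filter in both RNAs, and 7.25% against 11.4% with an offset of 10, so its relation to the background changed with the setting. The large and small subunit medians against all genes tested, 0.19 and 0.18, reversed to -0.18 and -0.056 with the processed ratios. They moved to 1.90 and 1.73 with median centring, 0.13 and 0.16 with outlying backgrounds kept, 0.24 and 0.23 with no filter, and 0.30 and 0.29 with the filter in both RNAs, and that of the small subunit to 0.15 with an offset of 10. Without replicate 1 or 2 they ran from 0.17 to 0.22 (large) and from 0.17 to 0.20 (small), and the large minus small difference from -0.03 to 0.05. That difference of 0.01 moved to 0.16 with median centring and -0.12 with the processed ratios. The cause of these shifts was not tested.

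Signs of named genes reversed as follows. With median centring, where the median of all genes is 2.34 and every tested member is positive, Mrpl33 stood at 4.36, Mrpl52 at 3.53, Mrpl28 at 4.70, Mrpl43 at 4.54, Mrpl54 at 3.93, Mrpl40 at 3.86, Mrps18a at 3.89, Mrps26 at 3.96 and Mrps24 at 3.86. With the processed ratios Mrpl28 was at 0.35 and Mrpl43 at 0.14. With outlying backgrounds kept Mrpl54 was at 0.11, Mrpl40 at 0.059, Mrps18a at 0.042 and Mrps24 at 0.10. With an offset of 10 Mrpl28 was at 0.058, Mrpl43 at 0.0039 and Mrps18c at -0.030. Mrps2 was at -0.88 with the filter in both RNAs, where another probe stands for it, and at -0.23 with the median of its probes, where Mrpl28 was at 0.026. The counts of calls have no value without a replicate, since 1 array leaves no residual degrees of freedom. The slide could not be fitted as a block because both arrays share 1 slide. No paired analysis was possible because each array already holds 1 ratio of a pair of RNAs.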
